A study of Mus musculus with 7 samples.

Results

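Expression of 8 complement genes was followed in macrophages of the injured sciatic nerve. The genes were C1qa, C1qb and C1qc, which encode the chains of C1q, C3 and Cfb, Cfp, which encodes properdin, and the receptor genes C3ar1 and C5ar1. They were taken by symbol and not by a cut on their values, but earlier results of these data were known when they were chosen. All 8 were found among the 23361 genes of the deposited table and passed the filter on low counts, which kept 12858 genes. Complement is a cascade of plasma proteins that is also made locally by macrophages. C1q opens the classical pathway by binding immune complexes, dying cells and debris, C3 is the point at which all pathways meet, and factor B and properdin build and stabilise the convertase of the alternative pathway. Cleavage of C3 and C5 releases the small peptides C3a and C5a, which act on myeloid cells through their receptors. In cut nerves, complement is known for coating myelin debris that macrophages then take up.

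The cells came from BALB/cJ mice, an inbred strain without a transgene or deletion, whose left sciatic nerve was cut and sutured into an inert conduit. All mice were given the anti-inflammatory painkiller meloxicam around surgery. Macrophages were sorted by flow cytometry from the tissue that bridged the gap as cells that carried the products of Emr1, Cd14 and Itgam and the Fc receptors CD16/32 and lacked markers of other blood cells and of fibroblasts. RNASeq libraries numbered 3 at day 5, 2 at day 14 and 2 at day 28 of repair. All groups were thus injured, and no uninjured nerve, blood monocyte or control library entered the comparisons. The age of these mice was not found in the sources used here. The labels call the libraries of a day separate biological replicates, but do not say whether 1 library stands for 1 mouse or for a pool, so the p-values measure the spread between these libraries.

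The libraries held 18027190 to 35247116 fragments assigned to genes, and libraries of the same day correlated at 0.954 to 0.977 over genes, which are no replicates of a condition. Levels are given as FPKM, fragments scaled by transcript length and library size, which can be compared between genes. All 8 genes fixed as markers of macrophages and of the sort were detected in every library, with a summed level of 16386 to 22460 FPKM, most of it Lyz2 at 10675 to 18377 FPKM. Among them Emr1, which encodes the macrophage surface protein used in the sort, had 365 to 470 FPKM at day 5 and 195 and 209 at day 28, and was called lower (log2 fold change -1.01, SE 0.17, edgeR adjusted p = 0.00650). Cd14 had 2635 to 3003 FPKM at day 5 and 1433 and 1799 at day 28, and was called lower at day 28 (-0.76, SE 0.16, adjusted p = 0.0145) and at day 14 (-0.75, SE 0.16, adjusted p = 0.0357). The other 6 of the 8 were not called in any comparison, and Csf1r lay between 406 and 493 FPKM throughout. Markers of fibroblasts summed to 223 FPKM in day 14 replicate 1 and to 81.2 FPKM in replicate 2, against 28.8 to 74.1 FPKM in day 5 libraries and 35.6 to 57.0 FPKM in those of day 28. Each of these 7 fibroblast genes was detected in some library, and all but Thy1 were highest in day 14 replicate 1. Most of the sum in that library was Col1a1, Col1a2 and Col3a1 (82.4, 48.1 and 76.1 FPKM). Thy1, whose product was used to exclude cells in the sort, had 1.22 FPKM in that library, against 2.06 in day 5 replicate 1. Col1a2 was called higher at day 14 than at day 5 (1.86, SE 0.39, edgeR adjusted p = 0.0350), and no other fibroblast gene was called in any comparison. Neutrophil markers summed to 75.0 to 91.5, 65.3 to 99.0 and 39.5 to 48.5 FPKM at days 5, 14 and 28. Nearly all of it was Csf3r and Retnlg, and the listed gene Elane had no fragment. Csf3r was called lower at day 28 than at day 5 (-1.09, SE 0.18, edgeR adjusted p = 0.00581), while Retnlg and Ltf were not called. Endothelial markers summed to 15.6 to 27.5, 10.7 to 15.0 and 6.12 to 10.1 FPKM at the 3 time points. Pecam1 and Kdr were called lower at day 28 than at day 5, while Vwf (0.502 to 1.02 FPKM at day 5, 2.37 and 3.21 at day 28) and Tek (at most 0.0184 and 0.105 to 0.267 FPKM) were called higher, 4 of the 6 genes in all. Dendritic cell markers summed to 8.18 to 13.04, 10.8 to 24.9 and 19.8 to 30.4 FPKM, with 1 of 6, Ccr7, called higher at day 28, and eosinophil markers to 0.567 to 2.28 FPKM over all libraries, with 1 of 3, Siglec5, called higher. B cell markers summed to 4.42 to 10.8 FPKM and T cell markers to at most 0.737 FPKM over all libraries. Schwann cell markers summed to 10.5 to 19.8 FPKM, almost wholly Mbp, with Sox10 at most at 0.0879 FPKM. Mbp, the only one of them tested, was called higher at day 28 than at day 5 (0.75, SE 0.19, edgeR adjusted p = 0.0296). In sorted bulk samples, fewer cells of a type and less RNA per cell cannot be told apart.

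The C1q genes lie next to each other on chromosome 4 of GRCm38 (mm10), all on the minus strand. By GENCODE, C1qb (ENSMUSG00000036905) covers chr4:136880129-136886187, C1qc (ENSMUSG00000036896) chr4:136889804-136893065 and C1qa (ENSMUSG00000036887) chr4:136895917-136898803. Only 3616 bases part C1qb from C1qc, and 2851 bases part C1qc from C1qa, so that the whole cluster spans 18675 bases. Cfb (ENSMUSG00000090231, chr17:34856374-34862518) starts 85 bases past the end of C2, the related protease gene of the classical pathway. Cfb is overlapped by the read-through gene model Gm20547 and by Mir6972. C3 (ENSMUSG00000024164) covers chr17:57203970-57228136 and holds Mir6978. C3ar1 (ENSMUSG00000040552) covers chr6:122847138-122856161, C5ar1 (ENSMUSG00000049130) chr7:16246743-16259540 and Cfp (ENSMUSG00000001128) chrX:20925454-20931555. All 8 are protein-coding genes on the minus strand.

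Upstream sequence was at hand from RefSeq (GRCm38.p6) for 6 of the 8 genes, and not for C1qa and Cfb. The 250 bases before the RefSeq start were searched on both strands for GAGGAA, the core bound by PU.1 and related ETS factors of myeloid cells, for TTGCNNAA, a C/EBP motif, and for GAAANNGAA, a core of the interferon-stimulated response element. These letters occur in 23.3%, 9.56% and 7.13% of the 32851 upstream windows of the table, so that a match is common. C1qb and C1qc held GAGGAA, at positions -30 and -193 from the start. C3 held the C/EBP motif at position -45, and C5ar1 the interferon core at -66. RefSeq starts and the GENCODE spans given above do not always agree. The C5ar1 window, chr7:16259339-16259588, lies mostly inside the GENCODE span of that gene, its match included, and the C1qc window, chr4:136892915-136893164, partly inside that of C1qc. No match was found in the windows of C3ar1 and Cfp. No link between a motif and a time course was tested, and the windows of a C1q gene, of C3 and of Cfp are printed as examples. They run 5' to 3' on the minus strand, with matches in capitals, for C1qb at chr4:136886201-136886450, for C3 at chr17:57228137-57228386 and for Cfp at chrX:20931556-20931805.
C1qb: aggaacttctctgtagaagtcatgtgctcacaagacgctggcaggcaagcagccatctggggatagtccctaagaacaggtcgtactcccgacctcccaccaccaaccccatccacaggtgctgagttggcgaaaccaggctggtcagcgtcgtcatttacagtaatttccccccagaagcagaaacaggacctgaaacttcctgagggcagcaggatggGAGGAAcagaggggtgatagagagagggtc
C3: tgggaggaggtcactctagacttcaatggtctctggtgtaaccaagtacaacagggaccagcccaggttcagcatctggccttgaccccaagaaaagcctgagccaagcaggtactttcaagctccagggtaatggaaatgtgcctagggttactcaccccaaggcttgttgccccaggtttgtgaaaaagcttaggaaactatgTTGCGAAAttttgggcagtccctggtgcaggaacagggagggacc
Cfp: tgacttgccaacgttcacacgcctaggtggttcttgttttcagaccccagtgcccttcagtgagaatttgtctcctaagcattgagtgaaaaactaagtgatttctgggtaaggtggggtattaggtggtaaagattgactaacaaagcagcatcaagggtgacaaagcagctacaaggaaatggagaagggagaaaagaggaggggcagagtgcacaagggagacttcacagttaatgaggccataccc
The capitals mark GAGGAA in C1qb and the C/EBP motif in C3.

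The first question was how much of each gene the macrophages held. C1q transcripts were among the most abundant in the cells. C1qa ranked between 25 and 78 of all genes by FPKM, C1qb between 40 and 123, and C1qc between 37 and 131. Cfp came next, at ranks 128 to 358, and the other members ranked between 362 and 1815. At day 5 the mean level ran from 1283 ± 148 FPKM (SD, n = 3) for C1qa down to 120 ± 26.2 FPKM for C3. C3ar1, C5ar1 and Cfb stood close together at that time, with libraries between 209.6 and 272.5 FPKM that overlapped. By day 28 the order below C1q was Cfp, C3ar1, C5ar1, C3 and Cfb, and the libraries of C3 and Cfb overlapped. Cfb, close to C3ar1 and C5ar1 at day 5, thus had the lowest mean of the members at day 28.

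**Figure D1:**
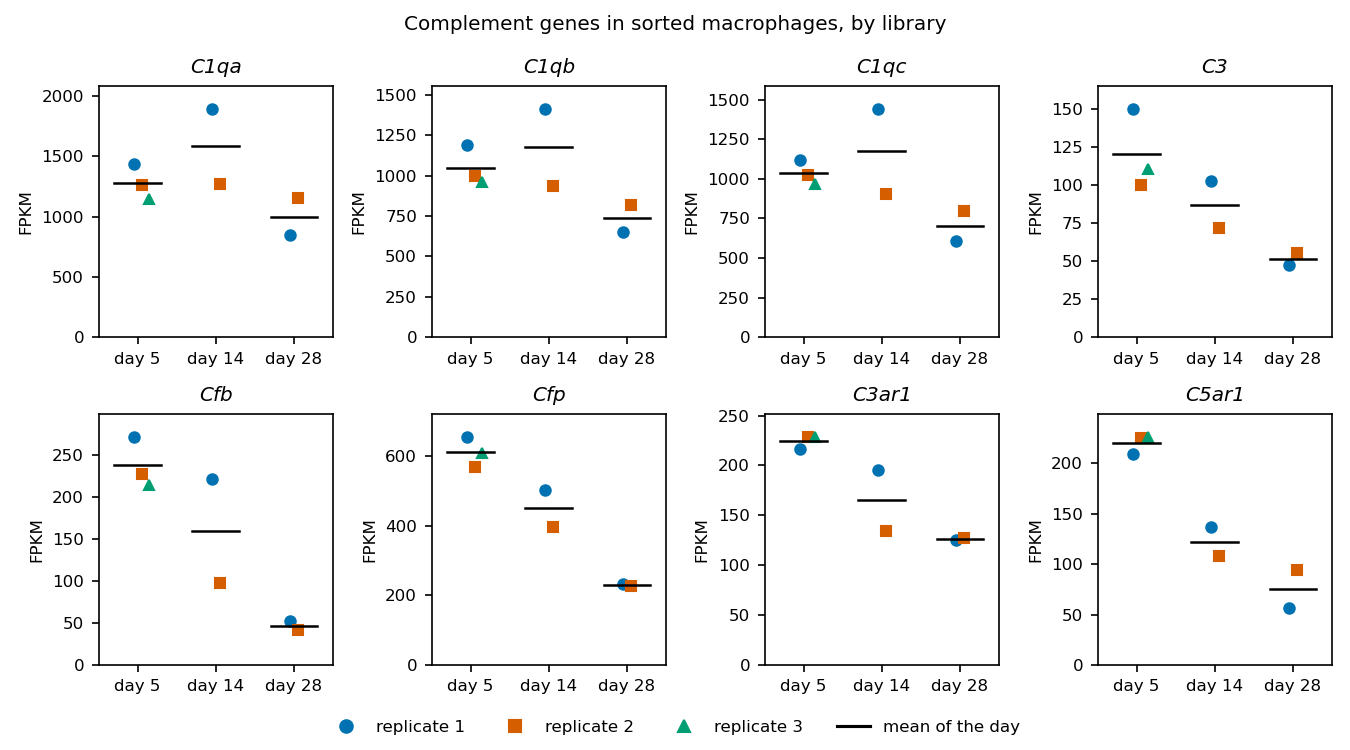
Level of each of the 8 complement genes in FPKM (linear axes from 0) in every library at days 5, 14 and 28, with replicates as symbols and the mean of the day as a line. The C1q genes overlap between days 5 and 14, the mean of Cfb goes from 238 to 47.0 FPKM over the time course, and day 14 replicate 1 lies above replicate 2 in every panel.

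C1qa encodes the A chain of C1q. It stood at 1440, 1262 and 1146 FPKM in day 5 replicates 1, 2 and 3, at 1894 and 1270 in day 14 replicates 1 and 2, and at 850 and 1152 in day 28 replicates 1 and 2. The libraries of days 5 and 28 overlapped, and the single highest library was day 14 replicate 1. C1qb, the gene of the B chain, measured 1190, 996 and 960 FPKM at day 5, 1413 and 938 at day 14, and 650 and 820 at day 28. C1qc, the gene of the C chain, measured 1119, 1023 and 968 FPKM at day 5, 1442 and 904 at day 14, and 604 and 798 at day 28. For C1qb and C1qc both day 28 libraries lay below all others. None of the 3 genes was called in any comparison by edgeR's quasi-likelihood test at a Benjamini-Hochberg adjusted p under 0.05, the threshold for a call throughout.

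From day 5 to day 14, the log2 fold change of C1qa was 0.31 (SE 0.20, 95% interval -0.13 to 0.75), that of C1qb 0.17 (SE 0.19, -0.25 to 0.60) and that of C1qc 0.19 (SE 0.20, -0.26 to 0.63). The edgeR adjusted p was 0.370, 0.620 and 0.609. These values hung on day 14 replicate 1, the library with the highest sums of fibroblast, neutrophil, B cell and eosinophil markers. Without it the log2 fold change was 0.0013 for C1qa, -0.14 for C1qb and -0.18 for C1qc, the remaining day 14 library being taken to vary like the other groups. At day 28 against day 5 it was -0.35 for C1qa (SE 0.20, interval -0.79 to 0.10, edgeR adjusted p = 0.268), -0.50 for C1qb (SE 0.19, interval -0.93 to -0.067, adjusted p = 0.111) and -0.55 for C1qc (SE 0.20, interval -1.01 to -0.098, adjusted p = 0.0954). C1qb and C1qc were called in this comparison under 5 of 15 alternatives each, DESeq2 among them (adjusted p = 0.0429 and 0.0293), and C1qa under 0 of 15.

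C3, whose product is cut into C3a and the opsonin C3b, was the lowest of the secreted components at day 5. Its libraries held 149.8, 100.1 and 110.6 FPKM at day 5, 102.3 and 71.3 at day 14, and 47.5 and 55.3 at day 28. Both day 28 libraries lay below all the others. From day 5 to day 28 the mean was 2.34-fold lower, and the log2 fold change was -1.21 (SE 0.21, edgeR adjusted p = 0.00721). The call was kept under 14 of 15 alternatives and was lost without day 28 replicate 1 (adjusted p = 0.0823).

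Cfb encodes factor B, the protease of the alternative pathway convertase, and showed the largest change of the members. It stood at 272.5, 228.2 and 214.6 FPKM at day 5, at 221.7 and 97.5 at day 14, and at 51.9 and 42.2 at day 28. The day 14 libraries spanned the range from near the day 5 libraries to well below them, and both day 28 libraries were lowest. The mean of day 28 was 5.07-fold below that of day 5, with a log2 fold change of -2.33 (SE 0.31, edgeR adjusted p = 0.00260) and a call under 15 of 15 alternatives. Since Gm20547 had no row of its own in the table and the counting of overlapping models is not given in the sources used here, part of the Cfb fragments could belong to that model. C2, the neighbour that the same model also overlaps, was far lower, between 0.595 and 4.25 FPKM, and was not called at day 28 against day 5, where its log2 fold change was -1.40 (SE 0.45, edgeR adjusted p = 0.0643).

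Cfp encodes properdin, which stabilises the convertase that factor B forms. It measured 656.5, 568.6 and 608.4 FPKM at day 5, 503.9 and 397.3 at day 14, and 231.5 and 225.6 at day 28. The libraries of the 3 time points did not overlap in any pair. From day 5 to day 28 Cfp fell by 1.41 on the log2 scale (SE 0.14, edgeR adjusted p = 9.19e-04), a 2.67-fold lower mean and the smallest adjusted p of the members, and it was called under 15 of 15 alternatives.

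C3ar1, the receptor gene for C3a, had libraries of 216.6, 228.1 and 228.9 FPKM at day 5, 195.0 and 134.6 at day 14, and 125.4 and 126.9 at day 28. C5ar1, the main receptor gene for C5a, a strong attractant of myeloid cells, had 209.6, 225.6 and 226.6 FPKM at day 5, 136.8 and 107.9 at day 14, and 56.6 and 94.6 at day 28. For both receptors the libraries of the time points did not overlap, with day 5 highest and day 28 lowest. C5ar1 fell by 1.53 on the log2 scale from day 5 to day 28 (SE 0.21, edgeR adjusted p = 0.00290), a 2.92-fold lower mean. C3ar1 fell by 0.82 (SE 0.16, adjusted p = 0.0105), 1.78-fold in the mean. The call of C5ar1 was kept under 15 of 15 alternatives. That of C3ar1 was kept under 12 of 15, and the fits without it included those that left out day 28 replicate 1 (edgeR adjusted p = 0.0830) or day 28 replicate 2 (0.0584).

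Over the whole set, 5 of 8 members were called lower at day 28 than at day 5, namely C3, Cfb, Cfp, C3ar1 and C5ar1. An unadjusted p under 0.05 was found for 7 of 8, and for 4046 of the 12858 genes tested, in either direction. In that comparison 7.51% of the 12858 genes tested were called lower and 7.74% higher. Abundant genes were called more often, and of the 911 genes with a mean level at least that of the lowest member 20.0% were called lower. The median log2 fold change was -1.02 over the members and 0.033 over all genes. The count of members called between days 5 and 28 ranged, with single libraries left out, from 3 without day 28 replicate 1, where 1.32% of all genes were called lower, to 7 without either day 14 library, where 10.5% and 10.6% were. Emr1, Cd14 and the neutrophil marker Csf3r were lower at day 28 as well, with the values given above, and their part in the result was not tested. The comparisons share libraries, so their values are given side by side and not as separate evidence.

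**Figure D2:**
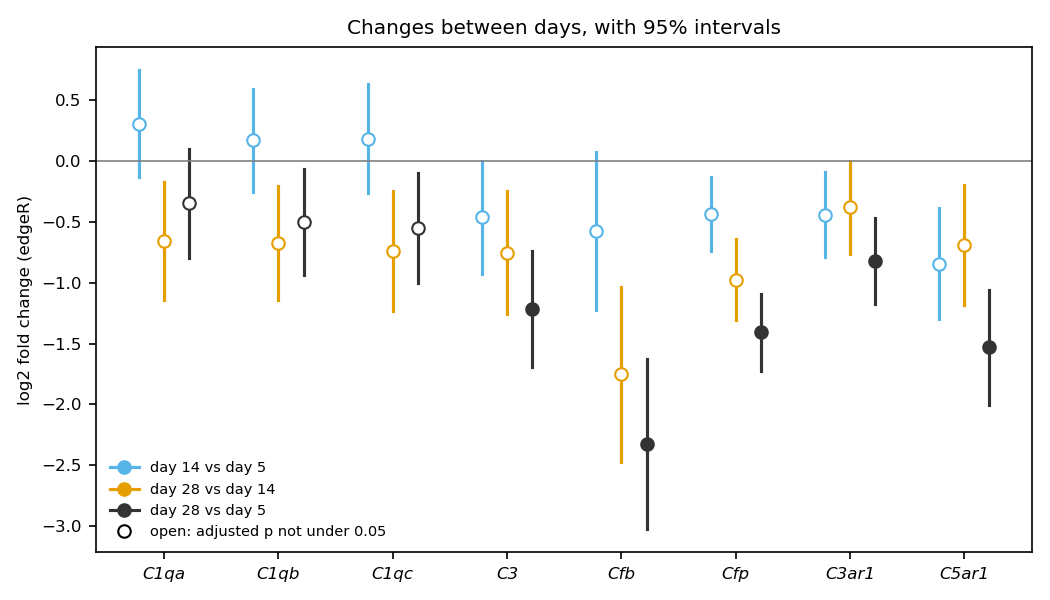
Fitted log2 fold change (edgeR) of each member for the 3 pairs of time points (coloured), the later day against the earlier one, with 95% intervals as bars and filled points where the adjusted p was under 0.05. Filled points appear for C3, Cfb, Cfp, C3ar1 and C5ar1 between days 5 and 28, from -0.82 for C3ar1 to -2.33 for Cfb, and the intervals of the C1q genes lie nearest to 0.

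The next question was when the change took place. By day 14, edgeR called 0 of 8 members. Of them 4 had an unadjusted p under 0.05, as did 3083 of the 12858 genes tested, in either direction. DESeq2 called 2 (C5ar1 and Cfp, against 4.96% of all genes called lower) and limma on log2 FPKM called 0. All genes gave 1.94% called lower and 2.84% called higher. C5ar1 was at the border, with a log2 fold change of -0.84 (SE 0.20, edgeR adjusted p = 0.0501). Cfp had -0.43 (SE 0.14, adjusted p = 0.0954) and C3ar1 -0.44 (SE 0.16, adjusted p = 0.128), and in these 3 genes both day 14 libraries lay below all day 5 libraries. How many of all genes did so was not counted. C3 had -0.46 (SE 0.21, adjusted p = 0.208) and Cfb -0.57 (SE 0.29, adjusted p = 0.261), with overlap. Without day 14 replicate 1, edgeR called C3, Cfb, Cfp, C3ar1 and C5ar1 lower at day 14, Cfb at -1.27 (adjusted p = 0.00134), while 7.34% of all genes were called lower in that fit.

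Between days 14 and 28, edgeR again called 0 of 8 members, against 0.0622% of all genes in either direction. All 8 had an unadjusted p under 0.05, as did 1570 of the 12858 genes tested, in either direction. DESeq2 called 4 (C1qc, C3, Cfb and Cfp, against 1.79% of all genes called lower) and limma on log2 FPKM called 0. Both day 28 libraries lay below both day 14 libraries in each of the 8 genes. The share of all genes that did so was not counted, and the members vary together, so no result about the set is drawn from this. The log2 fold change was -1.75 for Cfb (SE 0.32, edgeR adjusted p = 0.0800), -0.97 for Cfp (SE 0.15, adjusted p = 0.0554) and between -0.75 and -0.38 for the other members (adjusted p = 0.224 to 0.409). Without day 14 replicate 2, 7 members were called, all but C5ar1, against 3.29% of all genes called lower in that fit. Without day 14 replicate 1 Cfb alone was called (-1.05, adjusted p = 0.0470), against 0.120% of all genes. With 2 libraries at each of these days, the step at which members were called therefore rested on which day 14 library was used. For C5ar1, Cfp and C3ar1, both day 14 libraries lay between those of days 5 and 28. Day 14 replicate 1 held more than replicate 2 of each member. Its marker sums were higher for fibroblasts (223 against 81.2 FPKM), neutrophils (99.0 against 65.3), dendritic cells, B cells, endothelial cells and eosinophils. They were lower for macrophages (17604 against 22460 FPKM), Schwann cells and T cells, and the part of these markers in the result was not tested.

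**Figure D3:**
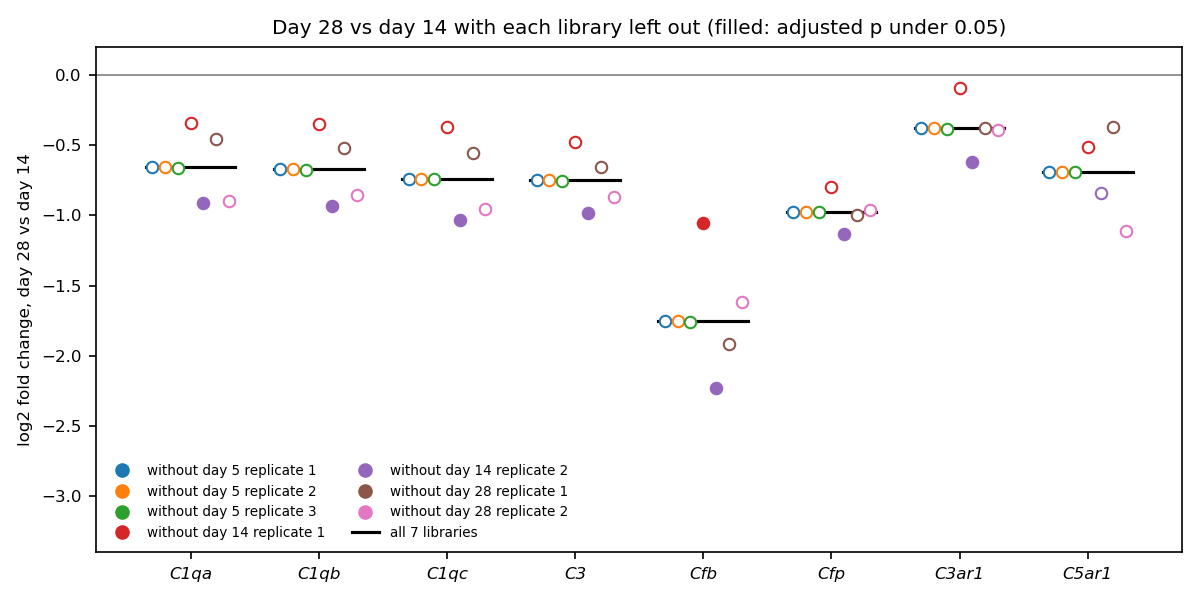
Log2 fold change (edgeR) of each member between days 14 and 28 with each library left out in turn, as points that are filled where the adjusted p was under 0.05, and with all 7 libraries, as a line. All points lie below 0, and the points without day 14 replicate 1 lie nearest to 0 in 7 of the 8 genes, C5ar1 being the exception.

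Ratios within a library do not depend on how libraries are scaled to each other. The C1q genes kept close to each other, with C1qa over C1qb between 1.19 and 1.40 and C1qc over C1qb between 0.929 and 1.03 over all 7 libraries. C1qa over Cfb was 5.28, 5.53 and 5.34 at day 5, 8.54 and 13.03 at day 14, and 16.4 and 27.3 at day 28, in each library of a later day above all those of the earlier one. C1qa over Cfp was 2.19, 2.22 and 1.88 at day 5, 3.76 and 3.20 at day 14, and 3.67 and 5.11 at day 28, and C1qa over C3 ran from 9.61 at day 5 to 20.8 at day 28. The log2 ratio was higher at day 28 than at day 5 by 1.97 for Cfb, 1.05 for Cfp and 0.84 for C3. Cfp over Cfb was 2.41, 2.49 and 2.84 at day 5, 2.27 and 4.08 at day 14, and 4.46 and 5.35 at day 28, with day 14 replicate 1 below every day 5 library. The receptors were at 1.03, 1.01 and 1.01 (C3ar1 over C5ar1) at day 5, 1.43 and 1.25 at day 14, and 2.21 and 1.34 at day 28. Of 7 such ratios, 6 gave a two-sided exact permutation p of 0.2 between days 5 and 28 (adjusted over the 7, 0.233), the smallest that 3 against 2 libraries allow, and C1qc over C1qb gave 0.4. No ratio could thus pass a threshold of 0.05 in this design.

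**Figure D4:**
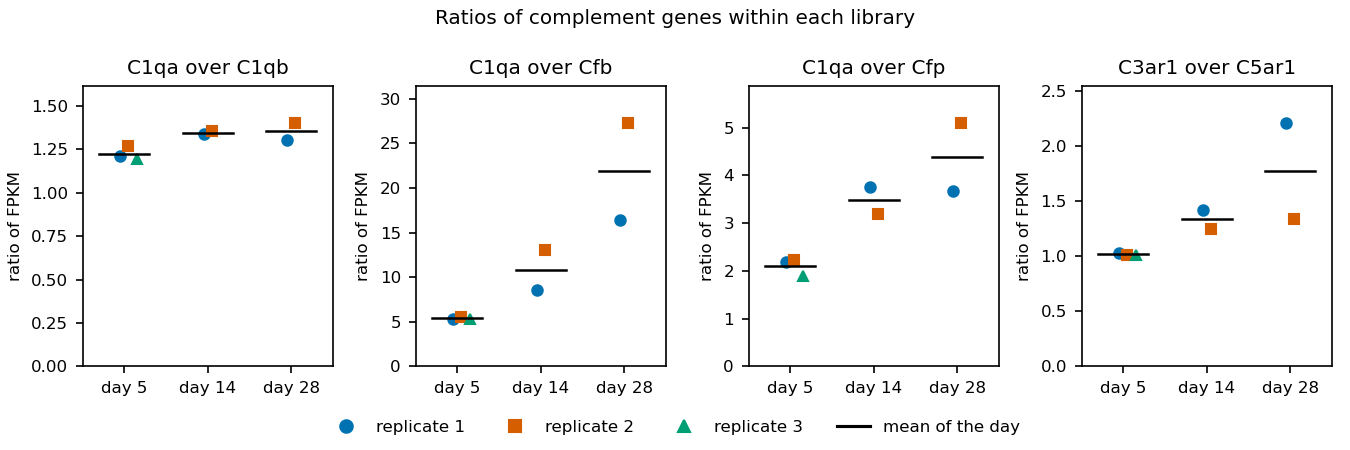
Ratio of FPKM values within each library (linear axes from 0) for C1qa over C1qb, C1qa over Cfb, C1qa over Cfp and C3ar1 over C5ar1, with replicates as symbols and the mean of the day as a line. C1qa over C1qb stays between 1.19 and 1.40, while C1qa over Cfb goes from about 5.28 in day 5 replicate 1 to 27.3 in day 28 replicate 2.

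Correlations across the 7 libraries on the log2(FPKM + 1) scale are given as a description, since libraries share their day and depth. Pearson's r was 0.965 to 0.992 in the 3 pairs within C1q, 0.879 to 0.983 in the 10 pairs among the other 5 members, and 0.495 to 0.811 in the 15 pairs between them. Among genes with a mean of at least 5 FPKM, those with the highest r were Zfp358 (0.983), Camk1 (0.980) and Ddt (0.974) for C1qa, Vegfb (0.983), Med22 (0.980) and Arid5a (0.977) for C1qb, and Zfp36 (0.986), Med22 (0.984) and Tlr9 (0.979) for C1qc. For C3 they were Bri3 (0.996), Tmbim6 (0.994) and Raly (0.993), for Cfb Ms4a7 (0.997), Oas1g (0.996) and Arhgap18 (0.995), and for Cfp Dgcr2 (0.992), Fcgr4 (0.991) and Tmem9b (0.990). For C3ar1 they were Xdh (0.995), Pxk (0.993) and Helz2 (0.991), and for C5ar1 Arhgef10l (0.996), Dennd1a (0.994) and Flot1 (0.993). Med22 was thus the only gene listed for more than 1 member.

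The rest of the complement system was read from a list of 54 symbols, of which 46 had a row and 22 were tested. Many of these genes were near silent in these cells, and 15 of the 46 had at most 3 fragments in every library and 8 of them had none. Among those with none were the lectins Mbl1, Mbl2, Colec10 and Colec11 and the pore components C8a and C9. Hc, the gene of C5, reached at most 0.0261 FPKM and Cfi, which encodes the protease factor I, at most 0.0832 FPKM. Cfd, the gene of factor D that cleaves factor B, reached at most 0.791 FPKM. The sorted cells thus held transcripts of C3, factor B and properdin, and of both peptide receptors, with few or no fragments of C5 and factor D. Of the 46 genes, 10 had a mean of at least 5 FPKM at 1 or more time points.

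At day 28 against day 5, 5 of the 22 other genes were called, 3 higher and 2 lower. Of all 12858 genes tested, 7.74% were called higher and 7.51% lower. An unadjusted p under 0.05 was found for 9 of the 22, against 4046 of the 12858 genes tested. Itgax, which encodes CD11c, the alpha chain of complement receptor 4, stood at 6.41, 18.3 and 6.55 FPKM at day 5, 34.1 and 170 at day 14, and 294 and 267 at day 28. It rose by 4.77 on the log2 scale (SE 0.66, edgeR adjusted p = 0.00291), the opposite direction to C3ar1 and C5ar1. Itgax is also a marker of dendritic cells, whose other markers summed to 8.18 to 13.04 FPKM at day 5 and 19.8 to 30.4 at day 28, and their part in the result was not tested. Cd93, a surface protein once described as a C1q receptor, had 121, 123 and 116 FPKM at day 5, 85.0 and 63.3 at day 14, and 45.5 and 62.7 at day 28, and fell by 1.14 (SE 0.17, adjusted p = 0.00446). Itgax and Cd93 were called under 15 of 15 alternatives. Vsig4, a receptor for C3 fragments on resident macrophages, was at 0.33 to 0.91 FPKM at day 5 and at 2.16 and 2.66 at day 28 (log2 fold change 2.04, SE 0.52, edgeR adjusted p = 0.0310, called under 10 of 15). C1ra, a protease of the C1 complex, fell by 0.76 (SE 0.21, adjusted p = 0.0418) and was called under 8 of 15. Clu, the gene of the fluid-phase inhibitor clusterin, was called higher (3.27, SE 0.76, adjusted p = 0.0220) through day 28 replicate 2, at 4.36 FPKM against 0.64 in replicate 1, and without replicate 2 it stood at 1.34 (adjusted p = 0.271).

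Itgam, the alpha chain gene of complement receptor 3, is one of the genes whose product was used for sorting. It had 397, 341 and 346 FPKM at day 5, 201 and 275 at day 14, and 289 and 235 at day 28. Itgam was not called (day 28 vs day 5, log2 fold change -0.45, SE 0.17, edgeR adjusted p = 0.105). Under 4 of 15 alternatives it was called lower in this comparison, DESeq2 among them (adjusted p = 0.0341), and under 3 of 15 at day 14 against day 5. Itgb2, the beta chain gene that complement receptors 3 and 4 share, ran from 402 to 717 FPKM over all libraries. It was likewise not called at day 28 against day 5 (0.45, SE 0.21, edgeR adjusted p = 0.180), but was called higher under 3 of 15 alternatives. Cr1l, the gene of the rodent membrane inhibitor Crry, lay between 41.2 and 49.4 FPKM (-0.099, SE 0.11, adjusted p = 0.561). The median log2 fold change of the 22 genes was 0.36.

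At day 14 against day 5, 8 of the 22 other genes had an unadjusted p under 0.05, against 3083 of the 12858 genes tested. After adjustment 4 of the 22 were called, all higher, against 2.84% of all genes called higher. They were Itgax (log2 fold change 3.31, SE 0.63, edgeR adjusted p = 0.0253), Cd55, a membrane inhibitor (1.801, SE 0.33, adjusted p = 0.0234), Serping1, which encodes the C1 inhibitor (2.46, SE 0.54, adjusted p = 0.0381), and C6, a pore component (2.06, SE 0.49, adjusted p = 0.0465). The latter 3 were low, and day 14 replicate 1 was their highest library. It held 7.20 FPKM of Cd55, 8.60 of Serping1 and 2.11 of C6, against 3.58, 2.15 and 0.79 in replicate 2 and at most 2.01, 1.26 and 0.47 at day 5. Without that library Serping1 stood at 1.16 (edgeR adjusted p = 0.128) and C6 at 1.203 (adjusted p = 0.200), while Cd55 was still called at 1.23 (adjusted p = 0.0340). Without day 14 replicate 2, Itgax stood at 1.72 (adjusted p = 0.0659). These 4 calls were kept under 6, 10, 5 and 5 of 15 alternatives. C4b, the mouse gene of C4, and Fcna, a ficolin of the lectin pathway, were also highest in day 14 replicate 1, at 44.3 and 51.4 FPKM, against 12.1 to 18.7 and 18.7 to 28.0 FPKM in the other libraries, and were not called. C4b and C1ra each have a near-identical copy, C4a and C1rb, so that their fragments are uncertain. That library also had the highest sums of fibroblast, neutrophil, B cell and eosinophil markers, whose part in these values was not tested. Between days 14 and 28, edgeR called 0 of the 22 genes, against 0.0622% of all genes in either direction. DESeq2 called 1, lower, against 1.79% of all genes called lower, and limma on log2 FPKM called 0. An unadjusted p under 0.05 was found for 10 of the 22, against 1570 of the 12858 genes tested.

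**Figure D5:**
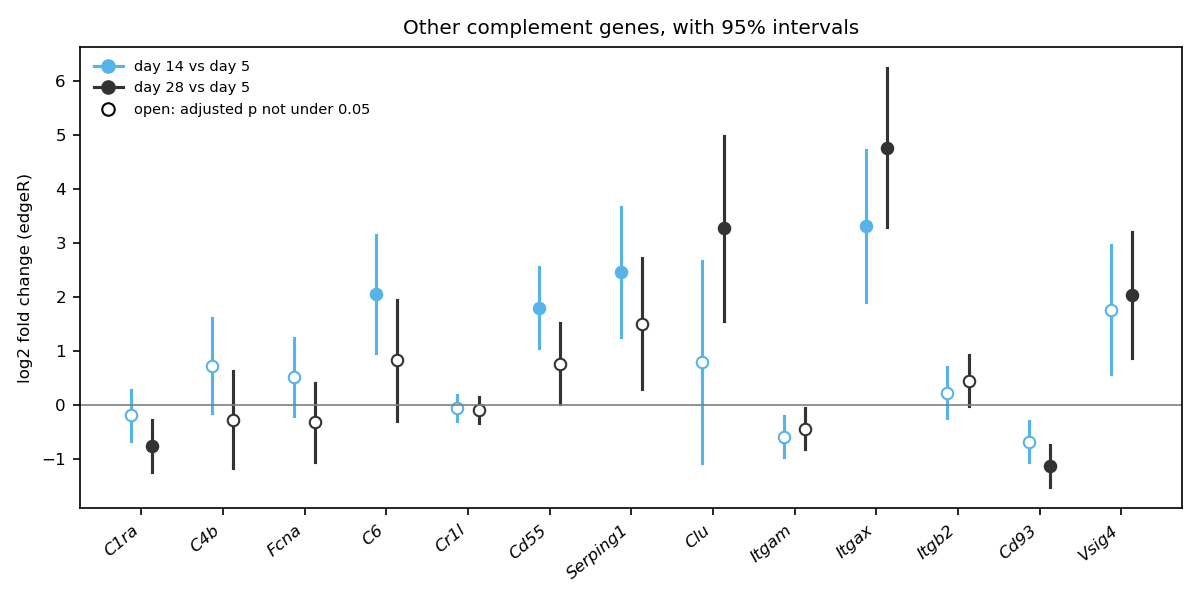
Fitted log2 fold change (edgeR) of the other complement genes that were called or reached a mean of 5 FPKM, at days 14 and 28, each against day 5, with 95% intervals as bars and filled points where the adjusted p was under 0.05. Itgax lies highest between days 5 and 28 at 4.77, Cd93 lowest at -1.14, and Cr1l lies at -0.099.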

How the data were processed

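RNASeq was performed by the authors on polyA+ RNA of macrophages sorted at days 5, 14 and 28. The authors trimmed reads with cutadapt 1.8, mapped them to mm10 with TopHat2 2.0.13 and quantified genes with Cuffdiff 2.2.1, per the labels. Expected counts, as deposited, are Cuffdiff's unscaled estimates of fragments per gene. The deposited signal holds these estimates after library scaling. FPKM values, also deposited, add the division by transcript length. The sources used here do not give how reads with several map positions, overlapping genes and strand were handled. Of the expected counts above 0, 1.36% were not whole within 0.001. Status was a failure for 8 values in 4 genes, none of them reported here.

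After rounding, expected counts were compared in R 4.3.3 with edgeR 4.0.16 (quasi-likelihood test, TMM, filterByExpr), with Benjamini-Hochberg adjustment over 12858 genes. The model had time point as its factor and all 7 libraries, which leaves 4 residual degrees of freedom. SE were taken from F and are approximate. The steps were tested on simulated data. Gene coordinates are from GENCODE M21, matched by symbol. Ratios were compared with exact permutation tests (Python 3.11.15, scipy 1.17.1), and plots were drawn with matplotlib 3.10.9. Totals of 18027190 to 35247116 fragments make counting error small for the members, whose lowest value was 2067 fragments, and detection meant more than 3 fragments, a floor for counting error only.

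The members and lists were chosen with earlier results of these data known. Genes were named by a rule: all 8 members, other listed complement genes that were called or had a mean of at least 5 FPKM at a time point, and for each member the 3 genes with the highest correlation. C2, single marker genes and the genes near 0 are not covered by this rule and were picked with their values in view. Deviations of same-numbered libraries of different days correlated at -0.054 to 0.175 over 7613 genes. The value of 0.175, for replicate 1 at days 5 and 14, was above the 0.1 set for a block, and the others were below it. The replicate number was not used for pairing, and a fit with it as a block is given below. Some genes of the lists are not reported here. Alternatives were DESeq2 1.42.0, RLE and Cuffdiff scaling, no expression filter, limma 3.58.1 with log2(FPKM + 1) or log2(FPKM + 0.1), models of 2 time points, a replicate block, leaving out each library, and an adjusted p under 0.01.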

Additional observations from a re-analysis of the deposited data

How the results depend on the processing

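Each of the 8 members was refitted under 15 alternatives per comparison. Between days 5 and 28, 106 of these values stayed on their side of the threshold, 10 became calls and 4 lost theirs, all with an unchanged direction. From day 14 to day 28, 102 stayed and 18 became calls. Between days 5 and 14, 107 stayed, 11 became calls and 2 changed sign, C1qb to -0.14 and C1qc to -0.18 without day 14 replicate 1, against 0.44 and 0.48 without replicate 2, the ends of their ranges. Leaving out 1 of 2 libraries left a day with a single library, assumed to vary like the other groups. The scalings moved the median of all genes by under 0.1 on the log2 scale.

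At day 14 against day 5 (0 members, 4 other complement genes and 614 of all genes called), DESeq2 called 2, 8 and 1366, no filter 1, 8 and 1429, and the fit on the 2 days 1, 1 and 315. The other complement genes called numbered 0 and 1 with limma on log2(FPKM + 1) and log2(FPKM + 0.1), and 0 at an adjusted p under 0.01, against 252, 277 and 24 of all genes. Between days 14 and 28 (0, 0 and 8), DESeq2 called 4, 1 and 332 and no filter 6, 1 and 390, while limma at either pseudocount, the fit on the 2 days and an adjusted p under 0.01 called 0 of all genes. At day 28 against day 5 (5, 5 and 1960), the other complement genes called numbered 8 with DESeq2, 3 with limma on log2(FPKM + 0.1), 9 on the 2 days and 2 at an adjusted p under 0.01, which left 597 of all genes and 4 members. With single libraries left out, members called ranged from 0 to 5, 0 to 7 and 3 to 7 in the 3 comparisons in this order, other complement genes from 0 to 7, 0 to 7 and 2 to 9, and all genes from 52 to 1728, 0 to 629 and 452 to 2746. The cause of these differences was not tested.

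With the replicate number as a block, which leaves 2 residual degrees of freedom, the members called were 0, 0 and 4, the other complement genes 0, 0 and 3, and all genes 6, 0 and 735. C3ar1 was the member no longer called between days 5 and 28 (adjusted p = 0.0529). The libraries share only a number, so the pairing was not used in the report. Depth did not limit the members, but the other complement genes near 3 fragments could not be compared.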
